A study of Mus musculus with 13 samples.

Results

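Genes that mark the steps from the oligodendrocyte precursor cell (OPC) to the premyelinating oligodendrocyte were followed through demyelination and recovery in mouse brain. The 10 genes were Pdgfra, Cspg4 and Lhfpl3 of the precursor, Gpr17, Bmp4 and Neu4 of the committed precursor, and Enpp6, Bcas1, Itpr2 and Rras2 of the newly formed cell. They were picked by name as markers of these steps, not by their measured values, out of 55401 genes in the deposited tables. Earlier results of these data were known when they were chosen. Each symbol occurred once in the tables, and all 10 genes passed the filter on low counts, which kept 14975 genes.

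The data were bulk RNA-seq of snap-frozen brain hemispheres from male wild-type C57BL/6J mice, with 5 control (CTL), 4 cuprizone (CPZ) and 4 recovery (RCV) libraries, 1 per mouse. CPZ mice were fed 0.3% cuprizone for 4 weeks and were collected at week 4. RCV mice received the same diet for 4 weeks and control diet for 2 more weeks, and CTL mice received control diet for 6 weeks, so that both were collected at week 6. The labels give an age of 6 to 8 weeks for all groups, and the methods of the study give an older age. CPZ mice therefore differed from CTL mice by diet and by the week of collection, and the effects of these cannot be told apart. Such tissue mixes gray and white matter and many cell types. In its RNA, fewer cells of a type and less RNA per cell cannot be told apart.

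Oligodendrocytes arise throughout life from precursors that divide in response to PDGF. A precursor that leaves the cell cycle passes through a short committed stage, becomes a premyelinating cell with many processes, and either wraps axons with myelin or dies. Cuprizone, a copper chelator, kills mature oligodendrocytes while the diet lasts, and precursors replace them.

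Libraries held 4605100 to 8197289 estimated counts, and any 2 libraries of a group differed by more than counting error. Levels are given as CPM, the counts of a gene relative to the TMM-scaled size of the library. Log2 fold changes, their standard errors (SE) and p values were obtained with edgeR (quasi-likelihood), p values were adjusted over the 14975 genes (Benjamini-Hochberg), and a gene was called at an adjusted p below 0.05. Marker genes of the labelled tissue were present in every library, and the summed CPM of 6 neuronal genes lay between 4079 and 5295. RCV replicates 3 and 4 held little choroid plexus RNA, with a summed CPM of 11.9 and 9.11 over 4 genes against 402 to 2667 in the other libraries. Values without RCV replicates 3 and 4 are given where a call of the 10 genes rested on them. Other regions varied too. The sum of 4 striatal genes ran from 60.0 (RCV replicate 3) to 794 (CTL replicate 2). That of 4 cerebellar genes ran from 32.9 (RCV replicate 3) to 144 (CTL replicate 3). Of these, Cbln3 and Gabra6 averaged 0.506 and 0.0272 CPM in CTL, and Cbln1 and Zic1 30.4 and 71.7. The part of regional content in the results was not tested.

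Most of the precursor and premyelinating genes were not called in CPZ, while genes of mature oligodendrocytes fell. Of the 10 genes, 2 were called between CPZ and CTL, Itpr2 and Cspg4, both higher in CPZ, and none was called lower. Over all genes tested, 10.2% were called in this contrast, 7.67% higher and 2.48% lower in CPZ. The median log2 fold change of the 10 genes was 0.16, against -0.02 over all genes. In contrast, 13 of 14 mature oligodendrocyte genes were called lower in CPZ, with a median of -1.54. Among them, Mal, a myelin membrane protein, fell by 2.43 (adjusted p = 4.64e-05).

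**Figure D1:**
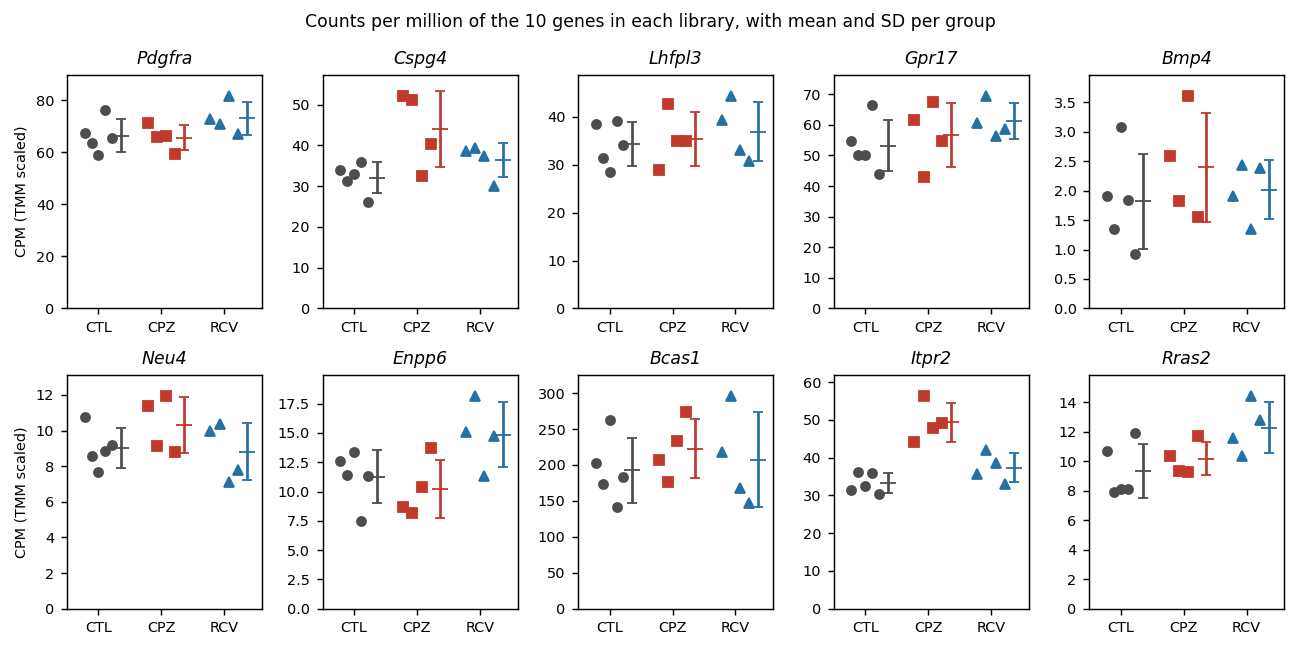
CPM (vertical axes, from 0) of the 10 genes in each library of CTL (circles), CPZ (squares) and RCV (triangles), with the mean and SD of each group beside the points. The CPZ libraries of Itpr2 lie between 44.1 and 56.3 CPM, above all CTL and RCV libraries, and the groups overlap for the other 9 genes.

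Itpr2 encodes a receptor for inositol trisphosphate that releases calcium from the endoplasmic reticulum, and it is a marker of newly formed oligodendrocytes that is also known as the main receptor of its family in astrocytes. The gene (ENSMUSG00000030287.15) lies on the minus strand at chr6:146108299-146502223 (GRCm38). Its CPM was 31.5, 36.3, 32.4, 35.9 and 30.3 in the CTL libraries. It was 44.1, 56.3, 47.9 and 49.2 in CPZ, and 35.8, 42.0, 38.5 and 33.0 in RCV. Every CPZ library lay above every CTL and RCV library, while RCV and CTL overlapped. Among all genes tested, 8.26% were higher in CPZ than in CTL without overlap.

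The mean of Itpr2 was 33.3 ± 2.70 CPM in CTL (SD, n = 5), 49.4 ± 5.10 in CPZ (SD, n = 4) and 37.3 ± 3.84 in RCV (SD, n = 4). It rose by 0.57 on the log2 scale in CPZ against CTL (SE 0.09, adjusted p = 0.000305), a 1.48-fold difference with a 95% interval of 1.30 to 1.69. The call held without any single library. Against RCV, Itpr2 was 0.40 higher in CPZ (SE 0.09, adjusted p = 0.0141), again with no overlap, and it was the only one of the 10 genes called in this contrast. Over all genes, 7.03% were called between CPZ and RCV, 5.15% higher in CPZ, and 8.27% were higher without overlap. At an unadjusted p below 0.05, which 19.1% of all genes reached, Enpp6 was added. The call of Itpr2 against RCV was lost without CPZ replicate 2 (0.33, adjusted p = 0.0596), without RCV replicate 1 (0.38, adjusted p = 0.0539) and without RCV replicates 3 and 4 (0.36, adjusted p = 0.122). Between RCV and CTL the difference was 0.17 (SE 0.09, adjusted p = 0.867).

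Markers of other cell types also differed between the groups. Of 7 astrocyte genes, 4 rose in CPZ against CTL, and their summed CPM was 4151 to 4584 in CTL, 4871 to 5873 in CPZ and 4893 to 5524 in RCV. Among these, Gfap, an intermediate filament of reactive astrocytes, rose by 2.43 (adjusted p = 5.27e-07), and Aqp4, a water channel, by 0.54 (adjusted p = 0.000363). All 9 microglial genes rose in CPZ, with sums of 287 to 341 in CTL, 905 to 1838 in CPZ and 423 to 554 in RCV. None of these genes was at 0 in any library, and their part in the Itpr2 result was not tested.

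The 3 genes whose log2-CPM followed Itpr2 most closely over the 13 libraries were Szrd1, Abhd4 and Nfkb1, out of 14142 genes compared. Their root-mean-square differences from Itpr2 were 0.109, 0.11 and 0.113 log2 units after each gene was centred on its CTL mean, where Itpr2 itself departed from that mean by 0.345. Of its own family, Itpr1 differed by -0.12 (adjusted p = 0.706) and Itpr3 by 0.31 (adjusted p = 0.368) between CPZ and CTL.

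Cspg4, the NG2 proteoglycan on the surface of precursors and also of pericytes, was the other gene called higher in CPZ. The gene (ENSMUSG00000032911.6) lies on the plus strand at chr9:56865033-56899870. Its CPM was 34.0, 31.4, 33.0, 35.9 and 26.0 in CTL, 52.1, 51.2, 32.5 and 40.4 in CPZ, and 38.6, 39.4, 37.3 and 30.1 in RCV. CPZ replicate 3 lay inside the CTL range and the other CPZ libraries above it, and 3 of 4 RCV libraries also lay above the CTL range. The difference was 0.45 in CPZ against CTL (SE 0.13, adjusted p = 0.0397), or 1.37-fold with an interval of 1.13 to 1.67. Between CPZ and RCV it was 0.27 (SE 0.14, adjusted p = 0.317), and between RCV and CTL 0.18 (SE 0.14, adjusted p = 0.962).

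The call of Cspg4 rested on single libraries. It was lost without CTL replicate 1, 2, 3 or 5 and without CPZ replicate 1 or 2, with log2 fold changes of 0.37 to 0.48 and adjusted p values of 0.0592 to 0.148. Of 7 pericyte genes, none was called in any contrast, and 0 reached an unadjusted p below 0.05 in CPZ against CTL. Their summed CPM was 213 to 250 in CTL and 205 to 217 in CPZ. The part of pericyte, astrocyte and microglial RNA in the Cspg4 result was not tested. The genes closest to Cspg4 over the libraries were Necap2, Cmtm6 and Ntpcr, with differences of 0.128, 0.13 and 0.135 against 0.33 for Cspg4 itself.

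Sequence upstream of the start site is shown for Itpr2, the gene with the firmest call, and for Enpp6, the gene with the largest CPZ to RCV difference, to show how the promoters differ in base composition. The sequences are the 250 bases before the annotated start in RefSeq GRCm38.p6, 5′ to 3′ on the gene's strand, at chr6:146502224-146502473 for Itpr2 (minus) and chr8:46986637-46986886 for Enpp6 (plus). Capitals mark GC boxes (GGGCGG, or CCGCCC on the other strand) and the SOX word AACAAT.

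Itpr2: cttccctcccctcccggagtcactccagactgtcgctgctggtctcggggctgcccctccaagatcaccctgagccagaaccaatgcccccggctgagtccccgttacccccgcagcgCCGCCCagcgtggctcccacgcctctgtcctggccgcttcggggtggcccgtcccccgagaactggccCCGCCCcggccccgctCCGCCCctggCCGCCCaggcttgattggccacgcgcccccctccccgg
Enpp6: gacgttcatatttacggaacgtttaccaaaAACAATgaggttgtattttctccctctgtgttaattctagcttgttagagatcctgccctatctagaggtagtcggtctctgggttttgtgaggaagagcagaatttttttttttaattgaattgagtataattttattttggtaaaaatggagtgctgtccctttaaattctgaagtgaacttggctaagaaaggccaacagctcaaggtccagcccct

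The window of Itpr2 held 4 GC boxes and was 74.4% G or C, that of Cspg4 held 2 and was 60.4%, and that of Enpp6 held none and was 38.4%. The median over all 32851 promoters was 52.4%, and 32.7% of them held a GC box. The word AACAAT was in 9.42% of all promoters and, among the 8 of the 10 genes found in the promoter table, only in that of Enpp6. The word ACAAAG, in 16.5% of all promoters, and the TATA box TATAAA, in 7.59%, were in none of the 8, and the E-box CAGCTG, in 13% of them, was found in Lhfpl3 alone, at 2 places. All words but TATAAA were searched on both strands, TATAAA only on the strand of the gene, and a match describes the letters only. The RefSeq starts of Cspg4 and Neu4 lie downstream of the GENCODE starts, so that part of these windows is inside the gene as GENCODE annotates it. Gpr17 and Bcas1 were not in the table.

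Pdgfra, the receptor through which PDGF-AA drives precursors to divide, showed no detectable difference between CPZ and CTL. The gene (ENSMUSG00000029231.15) lies on the plus strand at chr5:75152292-75198215. Its CPM was 67.4, 63.6, 59.2, 76.5 and 65.5 in CTL, 71.2, 66.0, 66.2 and 59.5 in CPZ, and 72.7, 70.8, 81.8 and 67.0 in RCV. Every CPZ library lay within the CTL range, and RCV replicate 3 was the only library above it. The log2 fold change of CPZ against CTL was -0.02 (SE 0.08, adjusted p = 0.944), and its 95% interval of 0.880 to 1.11-fold was the narrowest of the 10 genes. RCV against CTL gave 0.14 (adjusted p = 0.891) and CPZ against RCV gave -0.15 (adjusted p = 0.347). Fibroblasts also carry Pdgfra, and the summed CPM of 6 fibroblast genes was 32.2 to 52.1 in CTL, 24.8 to 45.2 in CPZ and 38.7 to 95.6 in RCV, where none was called against CTL. Col1a1, a collagen chain, differed by -1.89 between CPZ and RCV (adjusted p = 0.0396), and the part of fibroblast RNA in the Pdgfra levels was not tested.

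Of 5 genes of the PDGF system, 4 ligands and the receptor Pdgfrb, none was called in CPZ against CTL or in RCV against CTL. Pdgfa, which encodes the A chain, was higher in CPZ than in RCV by 0.28 (SE 0.06, adjusted p = 0.0134), without overlap. Against CTL it differed by 0.05 in CPZ (adjusted p = 0.719) and by -0.22 in RCV (unadjusted p = 0.00221, adjusted p = 0.207), where every RCV library lay below every CTL library. As deposited TPM, which scales for transcript length, the means of Pdgfa were 44.8 in CTL, 45.1 in CPZ and 42.7 in RCV. Pdgfb, the B chain, differed by 0.39 in CPZ against CTL (unadjusted p = 0.0101, adjusted p = 0.0799).

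Lhfpl3 (plus strand, chr5:22746059-23275597), a tetraspan membrane protein used as a precursor marker, lay between 28.4 and 39.1 CPM in CTL, 28.8 and 42.7 in CPZ, and 30.8 and 44.4 in RCV. The 3 groups overlapped throughout, and the difference of CPZ against CTL was 0.04 (SE 0.13, adjusted p = 0.897). Among 11 relatives of the 10 genes by family, 1 was called higher and 2 lower in CPZ than in CTL. Lhfpl2 rose by 1.07 in CPZ against CTL (adjusted p = 6.69e-05), and Lhfpl4 fell by 0.24 (adjusted p = 0.0442).

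A wider list of 16 precursor genes, among them Vcan, Ptprz1, Pcdh15 and Sox6, had a median log2 fold change of 0.01 in CPZ against CTL. In this list 1 gene was called, Rlbp1, a carrier of retinaldehyde that is also used by Müller glia, which rose by 0.51 (adjusted p = 0.00963). The summed CPM of the 16 genes was 1071 to 1209 in CTL, 1065 to 1131 in CPZ and 1066 to 1206 in RCV. The largest parts of this sum came from Tnr, Ptprz1 and Cspg5, at means of 277, 261 and 254 CPM in CTL. None of the 16 genes was called in RCV against CTL or in CPZ against RCV.

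Genes of cell division were measured alongside. Of 6 such genes, 4 passed the count filter, and these 4 rose in CPZ against CTL. Cdk1, a kinase of mitosis, rose by 3.03 (adjusted p = 1.15e-05) and Mki67, a protein of cycling nuclei, by 2.98 (adjusted p = 5.67e-05). Their summed CPM, with the 2 filtered genes included, was 3.67 to 9.99 in CTL, 20.4 to 47.2 in CPZ and 4.98 to 9.97 in RCV. Which cells this RNA came from was not tested, and the microglial genes given above rose in the same libraries.

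**Figure D2:**
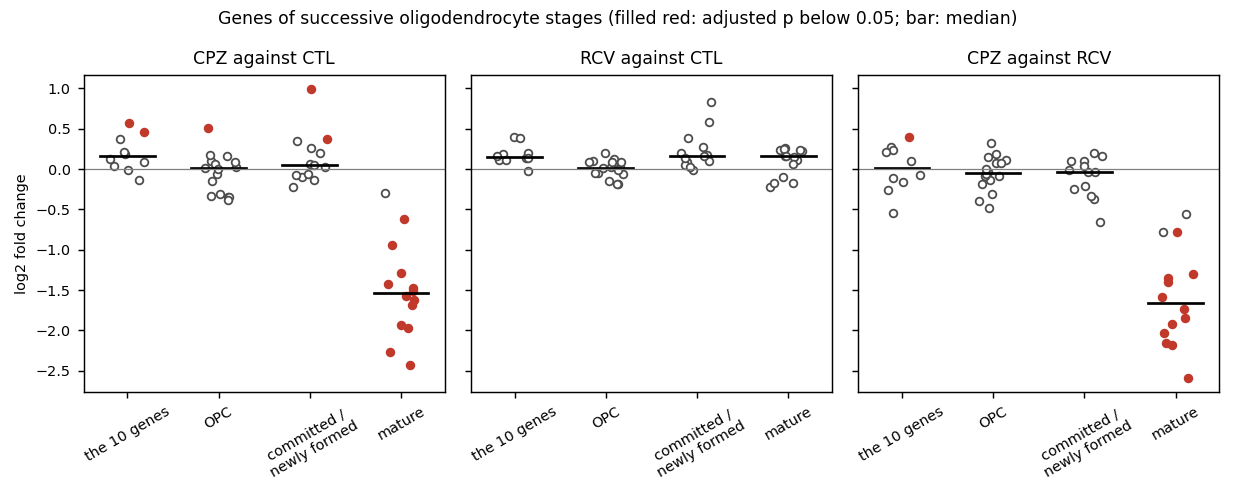
Log2 fold change (vertical axis) of each gene in the 3 contrasts for the 10 genes, 16 further OPC genes, 13 committed precursor and newly formed oligodendrocyte genes and 14 mature genes, with filled red points for an adjusted p below 0.05 and bars for medians. In CPZ against CTL the medians are 0.16, 0.01, 0.05 and -1.54.

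Gpr17 encodes a receptor that marks the committed precursor and is switched off before myelination. Its CPM was 54.8, 50.3, 50.3, 66.4 and 44.0 in CTL, 61.7, 43.0, 67.6 and 54.8 in CPZ, and 60.5, 69.5, 56.2 and 58.8 in RCV. All 4 RCV libraries lay above the CTL mean of 53.1, but 3 of them within the CTL range. The difference was 0.09 in CPZ (SE 0.13, adjusted p = 0.767) and 0.20 in RCV (SE 0.13, adjusted p = 0.928) against CTL. Gpr17 lies within the gene Lims2 on the opposite strand. It is not stated whether counting used strand, so reads of the pair may have been exchanged. Lims2 itself held 786 counts over the 13 libraries.

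Bmp4 (minus strand, chr14:46383520-46390669), a secreted ligand made by committed precursors, was the least counted of the genes, with 5 to 26 counts per library. Its CPM was 1.90, 1.35, 3.07, 1.83 and 0.917 in CTL, 2.59, 1.82, 3.61 and 1.55 in CPZ, and 1.91, 2.43, 1.35 and 2.39 in RCV. The groups overlapped, and the difference of CPZ against CTL was 0.37 (SE 0.34, adjusted p = 0.601), with an interval from 0.787-fold to 2.13-fold.

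Of 19 other genes of the BMP pathway, none was called in CPZ against CTL or in RCV against CTL, and at an unadjusted p below 0.05 there were 2 and 0. Smad5, a transcription factor that carries the BMP signal to the nucleus, was 0.34 higher in CPZ than in RCV (adjusted p = 0.0463). The target genes Id1, Id2, Id3 and Id4 differed by 0.11, -0.02, 0.19 and 0.10 between CPZ and CTL, with adjusted p values of 0.431 to 0.959. The BMP antagonist Nog differed by -0.46 (adjusted p = 0.386).

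Neu4 (plus strand, chr1:94020451-94028334), a sialidase that trims sialic acid from glycans, had means of 9.00 ± 1.12 CPM in CTL (SD, n = 5), 10.3 ± 1.58 in CPZ (SD, n = 4) and 8.82 ± 1.60 in RCV (SD, n = 4). CPZ replicates 1 and 3 lay above the CTL range of 7.68 to 10.7 and RCV replicate 3 below it, at 7.12. The difference of CPZ against CTL was 0.19 (SE 0.15, adjusted p = 0.530), and Neu1 and Neu3 were not called either, at -0.12 and 0.20.

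Enpp6, a choline phosphodiesterase that marks newly forming oligodendrocytes, had its lowest group mean in CPZ and its highest in RCV. The gene (ENSMUSG00000038173.15) lies on the plus strand at chr8:46986887-47096762. Its CPM was 12.6, 11.4, 13.4, 7.49 and 11.4 in CTL, 8.64, 8.14, 10.4 and 13.7 in CPZ, and 15.1, 18.1, 11.4 and 14.7 in RCV. RCV libraries 1, 2 and 4 exceeded every CTL library, and CPZ replicate 4 overlapped with the RCV range. These levels rested on 49 to 112 counts per library.

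None of the contrasts of Enpp6 passed the test. CPZ against RCV gave -0.54 (SE 0.20, adjusted p = 0.125, unadjusted p = 0.0140), with an interval of 0.515-fold to 0.917-fold before adjustment. Without CPZ replicate 4 it was -0.72 and was called (adjusted p = 0.0405). This was the only call among 8 fits with a library left out, which ranged from -0.72 to -0.43. RCV against CTL gave 0.40 (SE 0.19, adjusted p = 0.783, unadjusted p = 0.0466), and CPZ against CTL -0.14 (SE 0.19, adjusted p = 0.750). Of its relatives, Enpp4 fell by 0.57 in CPZ against CTL (adjusted p = 0.00209) and was 0.46 lower in CPZ than in RCV (adjusted p = 0.0246).

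Bcas1 marks premyelinating and early myelinating cells, encodes a protein associated with myelin, and was the most abundant of the 10 genes. The gene (ENSMUSG00000013523.13) lies on the minus strand at chr2:170346991-170427845. Its CPM was 202, 174, 263, 141 and 183 in CTL, 208, 177, 234 and 273 in CPZ, and 219, 296, 168 and 147 in RCV. Of the 4 CPZ libraries, 3 lay within the CTL range and 1 above it. The difference was 0.21 (SE 0.22, adjusted p = 0.665) in CPZ and 0.11 (SE 0.22, adjusted p = 0.995) in RCV, with an interval of 0.828-fold to 1.62-fold for CPZ. A fall of the size seen for Mal, the largest of the 14 mature genes, lay outside this interval. The smallest difference in that list, -0.30, lay close to the lower end of the interval, -0.27 on the log2 scale.

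Within each group, Bcas1 was highest and lowest in the same libraries as the mature genes. The summed CPM of the 14 mature genes was highest in CTL replicate 3 (4964), CPZ replicate 4 (1996) and RCV replicate 2 (6015), and each of these also had the highest Bcas1 and Enpp6 of its group. The sum was lowest in CTL replicate 4 (2629), CPZ replicate 2 (1248) and RCV replicate 4 (3558), which had the lowest Bcas1. Enpp6 was lowest in the same CTL and CPZ libraries but in RCV replicate 3. In CTL, Pdgfra and Lhfpl3 had the opposite order, highest in replicate 4 and lowest in replicate 3. Cspg4 and Gpr17 were also highest in CTL replicate 4 but lowest in CTL replicate 5. In RCV the order was not particular to the premyelinating genes, since Cspg4, Lhfpl3 and Itpr2 were also highest in replicate 2 and lowest in replicate 4, and Pdgfra was lowest in replicate 4. This likeness was noticed in the values, rests on 4 or 5 libraries per group and was not tested. Between groups it did not carry over, since every CPZ library had a lower mature sum than every CTL library while Bcas1 overlapped.

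**Figure D3:**
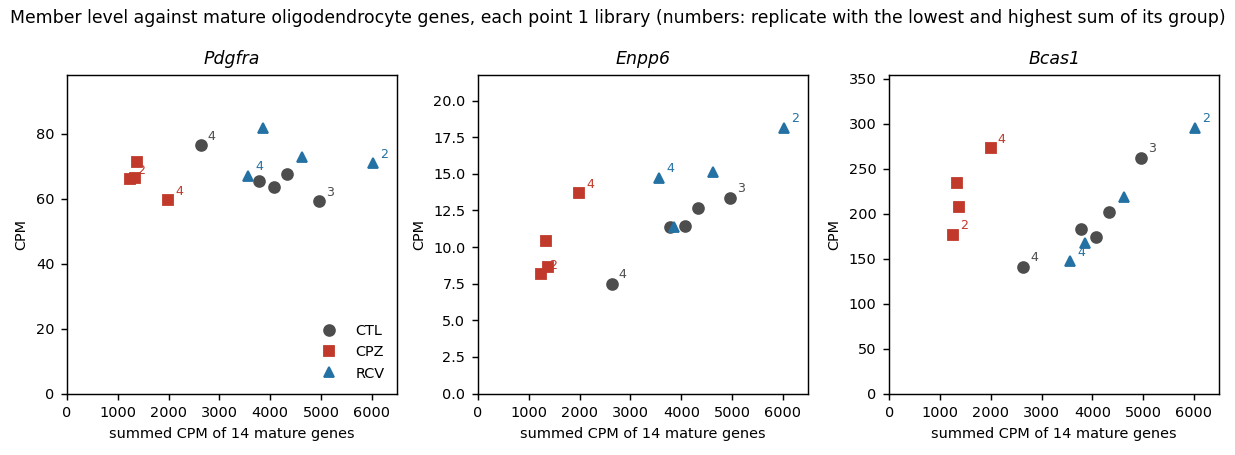
CPM of Pdgfra, Enpp6 and Bcas1 (vertical axes) against the summed CPM of 14 mature oligodendrocyte genes (horizontal axes), 1 point per library, with replicate numbers for the libraries of lowest and highest sum in each group. The CPZ libraries lie at sums of 1248 to 1996, left of all CTL and RCV libraries, at Bcas1 levels of 177 to 273 CPM.

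Rras2 (minus strand, chr7:114046782-114117781), a small GTPase of the Ras family, had means of 9.37 ± 1.84 CPM in CTL (SD, n = 5), 10.2 ± 1.15 in CPZ (SD, n = 4) and 12.3 ± 1.74 in RCV (SD, n = 4). RCV replicates 3 and 4, at 14.4 and 12.8, lay above the CTL range of 7.95 to 11.9, and these are the libraries with little choroid plexus RNA. The difference of RCV against CTL was 0.39 (SE 0.15, unadjusted p = 0.0206) and did not pass adjustment (adjusted p = 0.605), and without RCV replicates 3 and 4 it was 0.23 (adjusted p = 0.915). That of CPZ against CTL was 0.13 (adjusted p = 0.71), and the relatives Rras and Mras differed by 0.47 (adjusted p = 0.209) and -0.09 (adjusted p = 0.492).

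A list of 14 other committed precursor and newly formed oligodendrocyte genes had 13 members above the count filter. Of these, 2 rose in CPZ against CTL and none fell, with a median of 0.05. They were 9630013A20Rik, a long noncoding RNA gene of this stage, and Frmd4a, a scaffold protein of cell polarity. 9630013A20Rik rose by 0.99 (SE 0.27, adjusted p = 0.0255) at a low level, with means of 1.29 CPM in CTL and 2.59 in CPZ. Frmd4a rose by 0.37 (adjusted p = 0.00161). Fyn, a kinase that promotes myelination, differed by 0.06 (adjusted p = 0.626), and Tcf7l2, a transcription factor of the premyelinating stage, by 0.26 (SE 0.55, adjusted p = 0.852).

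After 2 weeks of recovery, none of the 10 genes was called against CTL by edgeR, DESeq2 or limma-voom, where edgeR called 0.374% of all genes. Enpp6 and Rras2 had an unadjusted p below 0.05, which 6.2% of all genes had. The log2 fold changes were above 0 for 9 of 10 genes, from 0.11 for Bcas1 and Lhfpl3 to 0.40 for Enpp6, with Neu4 at -0.02, and their median was 0.15. For the 13 committed and newly formed genes the median was 0.16 with none called, and for the 14 mature genes it was 0.16 with none called. For the 16 further OPC genes it was 0.02, with 9 above and 7 below 0 and none called. The median over all genes was -0.0044. The comparisons of CPZ and of RCV with CTL share the CTL libraries.

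**Figure D4:**
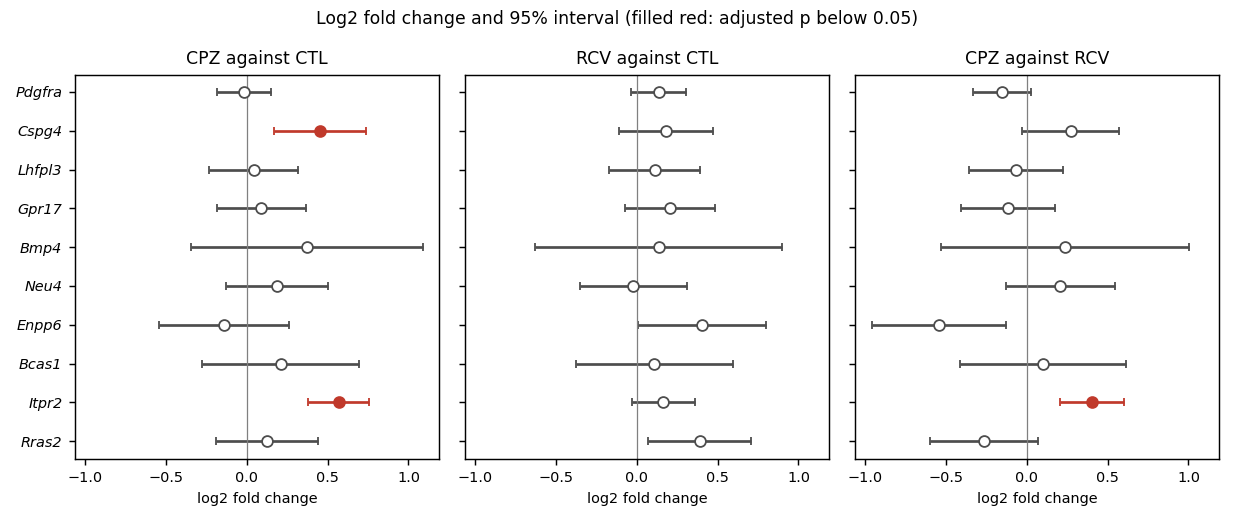
Log2 fold change (horizontal axis) with its 95% interval before adjustment for the 10 genes (rows) in the 3 contrasts, filled red where the adjusted p is below 0.05. Itpr2 is called in CPZ against CTL (0.57) and against RCV (0.40), Cspg4 in CPZ against CTL (0.45), and no gene in RCV against CTL.

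Per transcript length, Bcas1 stood far above the others. The deposited TPM, which scales for transcript length, averaged 192 ± 46.7 in CTL (SD, n = 5) for Bcas1, 24.6 for Lhfpl3, 22.3 for Pdgfra and 21.2 for Gpr17. Cspg4 followed at 11.4, Rras2 at 8.33, Enpp6 at 8.12, Itpr2 at 7.35, Neu4 at 5.47 and Bmp4 at 4.01 TPM. Neighbours in this order overlapped between libraries, except Bcas1 with Lhfpl3 and Gpr17 with Cspg4. In CPZ, Itpr2 stood after Cspg4, at 11.5 TPM, and Enpp6 after Neu4, at 6.58.

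TPM and counts did not give the same picture for all genes. The TPM assigned per CPM varied between libraries by 1.07-fold for Gpr17, which has 1 annotated transcript, by 1.13-fold for Bcas1 and by 1.36-fold for Pdgfra. It varied by 1.98-fold for Itpr2, whose 11 annotated transcripts are 480 to 11679 bases long, and by 5.31-fold for Bmp4, with 4 transcripts of 258 to 2064 bases. With log2(TPM + 1) in limma, Itpr2 differed by 0.56 between CPZ and CTL, close to the count result, but was not called (adjusted p = 0.188). Unlike its CPM, its TPM overlapped between groups, at 9.13 to 16.82 in CPZ, 5.87 to 10.07 in CTL and 6.36 to 13.93 in RCV. Cspg4 differed by 0.32 in the same fit (adjusted p = 0.268). None of the 10 genes was called in any contrast on the TPM scale.

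**Figure D5:**
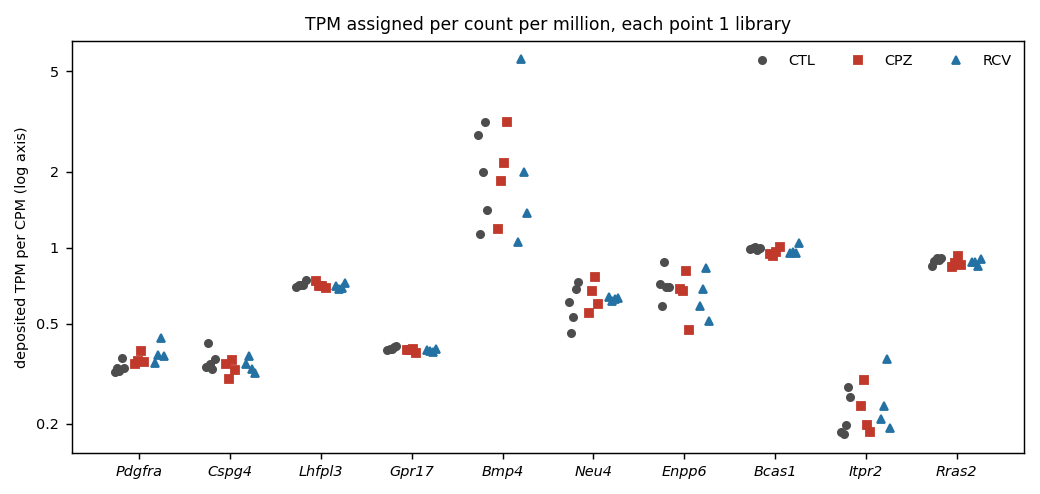
Deposited TPM divided by CPM (vertical log axis) for the 10 genes in each library of CTL (circles), CPZ (squares) and RCV (triangles). The ratio is nearly constant for Gpr17 (0.381 to 0.408) and spreads from 0.182 to 0.362 for Itpr2 and from 1.05 to 5.57 for Bmp4.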

How the data were processed

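Bulk RNA-seq libraries of 13 mice were analysed from tables the authors deposited. Per the labels, libraries were made with the Kapa mRNA HyperPrep Kit and processed with STAR and RSEM on mm10, and the paper names the RNASequest pipeline for the bulk analysis. Tool versions, the strand setting of the counting and the test used within that pipeline were not given in the sources used here. The deposited values were estimated counts with no scaling (4.45% not whole, and rounded here), and TPM, which the authors' software scales by transcript length and by the library's total. The 92 spike-in rows, at 0 counts, were removed. Of the gene identifiers, 98.1% matched GENCODE M21 (GRCm38) with the same version. Promoter sequences are from RefSeq GRCm38.p6.

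Groups came from the treatment label and not from the library titles, which begin with Veh for RCV. All 13 libraries were used, the number the paper gives for bulk RNA-seq, while its tissue collection methods and the labels' design text count fewer mice. The paper's methods describe wild-type C57BL/6J males of about 10 weeks, and the labels an age of 6 to 8 weeks. Low counts were removed with filterByExpr, TMM factors were computed, and the quasi-likelihood F test of edgeR 4.0.16 (robust) was run in 1 fit of the 3 groups, with no covariate. Adjustment followed Benjamini and Hochberg over 14975 genes. CPM are linear, and log2-CPM used a prior count of 2. The test was checked on simulated data. Alternatives were DESeq2 1.42.0, limma 3.58.1 on voom or log2 TPM, other filters and scaling, a replicate block and leaving out libraries. The chi-square per gene between 2 libraries of a group was 4.49 to 17.8 over 22 pairs, where counting error alone gives 1. R 4.3.3, Python 3.11.15 and matplotlib 3.10.9 were used.

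The 10 genes, the 17 other lists and the tests were chosen with earlier results of these data known. Named were the 10 genes, members of lists called in a contrast or needed to break down a count, and the 3 genes closest to each called member with mean log2-CPM of 1 or more. The lists of endothelial cells, neurons, neuroblasts, striatum, cerebellum and choroid plexus held no called gene in any contrast, except 1 endothelial gene lower in RCV than in CTL. The words searched in promoters, the exclusion of RCV replicates 3 and 4 and the comparison of Bcas1 with the mature genes were chosen after the data were seen. A result for 1 gene of the mature list is not reported here.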

Additional observations from a re-analysis of the deposited data

Results flagged for a closer look

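Of 60 sets of values, the 10 genes in 3 groups as CPM and as TPM, 3 held a library that stood far from the rest of its group, and chance gives about 1 in 20. All 3 were TPM values. Pdgfra was at 35.74 TPM in RCV replicate 3, where the next library was at 26.49. Bmp4 was at 13.54 TPM in RCV replicate 2, where the next was at 3.28. Itpr2 was at 16.82 TPM in CPZ replicate 2, where the next was at 10.41. As CPM these were also the highest libraries of their groups, at 81.8, 2.43 and 56.3, but no set of CPM values met the same limit.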

How the results depend on the processing

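The number of the 10 genes called in CPZ against CTL, 2 here, was 1 (Itpr2) with limma-voom, with only the 2 groups compared and with the replicate block, 0 in each of the 3 TPM fits, and 1 to 2 with a library left out. Cspg4 had adjusted p values of 0.0588, 0.0504 and 0.112 in the first 3 of these. Itpr2 was called in 16 of 19 alternatives, all but the TPM fits (adjusted p 0.188 to 0.292). In CPZ against RCV, 1 gene was called here, 0 in the TPM fits and without RCV replicates 3 and 4, and 0 to 2 with a library left out. No gene of the 10 was called in RCV against CTL in any of 20 alternatives. Same-numbered libraries of different groups did not deviate together (r from -0.199 to 0.136 over 12 pairs, 3 above 0.1), so the numbers were not used as pairs.

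Over all genes, the 1520 calls of CPZ against CTL became 992 with TPM and no filter. The 56 of RCV against CTL became 131 with DESeq2, 12 with limma-voom, 22 with TPM and no filter, 20 with at least 10 counts in every library, 34 without RCV replicates 3 and 4, and 21 to 54 with a library left out. The 1053 of CPZ against RCV became 599, 508 and 487 with TPM (pseudocount 1, 0.1 and no filter), 556 without RCV replicates 3 and 4, and 632 to 1092 with a library left out. Causes were not tested.

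No called difference changed sign. Pdgfra in CPZ against CTL became 0.088, 0.092 and 0.088 with TPM (pseudocount 1, 0.1 and no filter), 0.0018 with no count filter, and -0.055 to 0.039 with a library left out. Neu4 in RCV against CTL became 0.023, 0.030 and 0.023 with TPM, 0.17 without RCV replicates 3 and 4, and -0.11 to 0.068 with a library left out. With a library left out, Lhfpl3 ranged from -0.061 to 0.14 in CPZ against CTL and from -0.17 to 0.033 in CPZ against RCV. Bmp4 ranged from -0.017 to 0.40 in RCV against CTL and from -0.020 to 0.40 in CPZ against RCV, and Bcas1 from -0.11 to 0.25 and from -0.022 to 0.32. Bcas1 in CPZ against RCV was -0.20 without RCV replicates 3 and 4.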
